A study of Mus musculus with 3 samples.

Results

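The 5 neuropeptide precursor genes and 4 granin genes were described in the CA1 field of the mouse hippocampus after fear learning. The members were Sst, Npy, Cck, Penk, Vip, Scg2, Vgf, Chga and Chgb, and they were taken by gene symbol, through every probe set that the platform annotation ties to a single gene. Of the 9 genes, 8 had such a probe set, with 12 probe sets in all, among 8251 named genes and 12488 probe sets on the array. Vgf, a granin-like gene that responds to neurotrophins, had no probe set of its own and is absent from all that follows. The RNA came from young male mice of the inbred C57BL/6J strain, in 1 group of 3 arrays. The mice were put in a new context, received a foot shock of 0.5 mA for 1 s after 2 min, went through this cycle 3 times, and were returned to their cage 1 min later. RNA was taken 6 h after the final shock. Control animals were not analysed here, so no level below can be read as raised or lowered by training. It is not stated if each array held 1 animal or a pool, or that the arrays came from separate animals, so the spread between arrays may be technical.

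Neuropeptides are made as long precursors, packed into dense-core vesicles, cut there by proprotein convertases and trimmed by carboxypeptidases, and released on sustained firing. In the hippocampus, Sst, Npy, Vip and Cck mark classes of GABAergic interneurons, while Cck and Penk transcripts are also found in principal cells. Granins are acidic proteins that aggregate calcium and cargo in the same vesicles and are themselves cut into peptides. Several of these genes carry a cAMP response element in the promoter, the site bound by the transcription factor CREB, which is activated during memory formation.

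The promoter stretches of 6 members are shown because they hold that element whole or in part. They are RefSeq sequences of the GRCm38.p6 build, given 5′ to 3′ in the direction of the gene and covering the 120 bases before the annotated start. Capitals mark the whole palindrome TGACGTCA in the first 3 and the core TGACG, or its reverse complement CGTCA, in the others.
Sst, chr16:23890845-23890964, minus strand: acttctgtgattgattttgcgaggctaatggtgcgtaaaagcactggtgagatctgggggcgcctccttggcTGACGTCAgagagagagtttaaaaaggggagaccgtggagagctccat
Scg2, chr1:79440027-79440146, minus strand: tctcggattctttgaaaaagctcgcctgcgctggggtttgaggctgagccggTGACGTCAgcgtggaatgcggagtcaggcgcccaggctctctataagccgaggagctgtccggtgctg
Chgb, chr2:132781522-132781641, plus strand: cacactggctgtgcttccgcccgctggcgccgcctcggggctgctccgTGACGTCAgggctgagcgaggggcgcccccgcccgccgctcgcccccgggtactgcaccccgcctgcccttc
Cck, chr9:121495695-121495814, minus strand: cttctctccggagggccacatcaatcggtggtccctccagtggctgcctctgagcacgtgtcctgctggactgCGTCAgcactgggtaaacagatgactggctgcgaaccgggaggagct
Vip, chr10:5639098-5639217, plus strand: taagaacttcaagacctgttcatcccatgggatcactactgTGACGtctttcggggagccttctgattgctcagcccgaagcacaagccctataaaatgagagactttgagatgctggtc
Chga, chr12:102554821-102554940, plus strand: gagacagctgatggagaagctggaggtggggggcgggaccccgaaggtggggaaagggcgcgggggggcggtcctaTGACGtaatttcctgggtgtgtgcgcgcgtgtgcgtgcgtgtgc

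The whole palindrome began 48 bases before the start of Sst, 68 before that of Scg2 and 72 before that of Chgb. The core site lay from 79 to 75 bases before the start of Vip and from 44 to 40 before that of Chga. In Cck it lay on the opposite strand, from 47 to 43 bases before the start. Windows of 300 bases, which run on past the start, were searched on both strands, and a core site inside a whole one was counted too. Of 7 members with a window, 3 held the palindrome and 6 held a core site, and the window of Npy held none. Among all 32851 windows in the table, 1.79% held the palindrome and 20.8% the core site. Among 5146 windows of genes whose signal was above threshold here, the shares were 3.05% and 32.0%. These are matches of letters and say nothing of binding. The table gave no window for Penk or Vgf.

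All values are deposited signal intensities on a linear scale, given as mean ± SD (n = 3 arrays) or for single arrays. A probe set was called above threshold when its mean exceeded 175, the median of all values, which stands in for a detection call. The array medians were 176 on array 1, 177 on array 2 and 171 on array 3. Each array's mean after trimming 2% at each end was 500.3. With that mean held in common, close medians do not show that the arrays were comparable. Signals of different probe sets depend on probe affinity, so no gene is ranked against another. Dividing the 3′ by the 5′ control probe set gave 3.99, 1.21 and 3.94 for Gapdh and 2.57, 1.86 and 3.50 for Actb, on arrays 1, 2 and 3. Among CA1 pyramidal markers, 5 of 5 genes with a probe set exceeded the threshold on each array, as did 3 of 6 dentate granule markers, Calb1, Lct and Dsp. Calb1 is also made in CA1. Lct gave 296, 412 and 255, and Dsp 206, 288 and 179.5. Prox1, the defining factor of dentate granule cells, was under threshold at 28.4 ± 18.7 on its 1 probe set. The share of dentate tissue was not tested.

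Of the 8 members measured, 7 were above threshold, and all 7 exceeded it on each of the 3 arrays. Among all named genes, 59.1% were above threshold by their mean and 52.9% on each array. A gene with several probe sets is represented by its brightest one, unless a probe set is named.

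**Figure D1:**
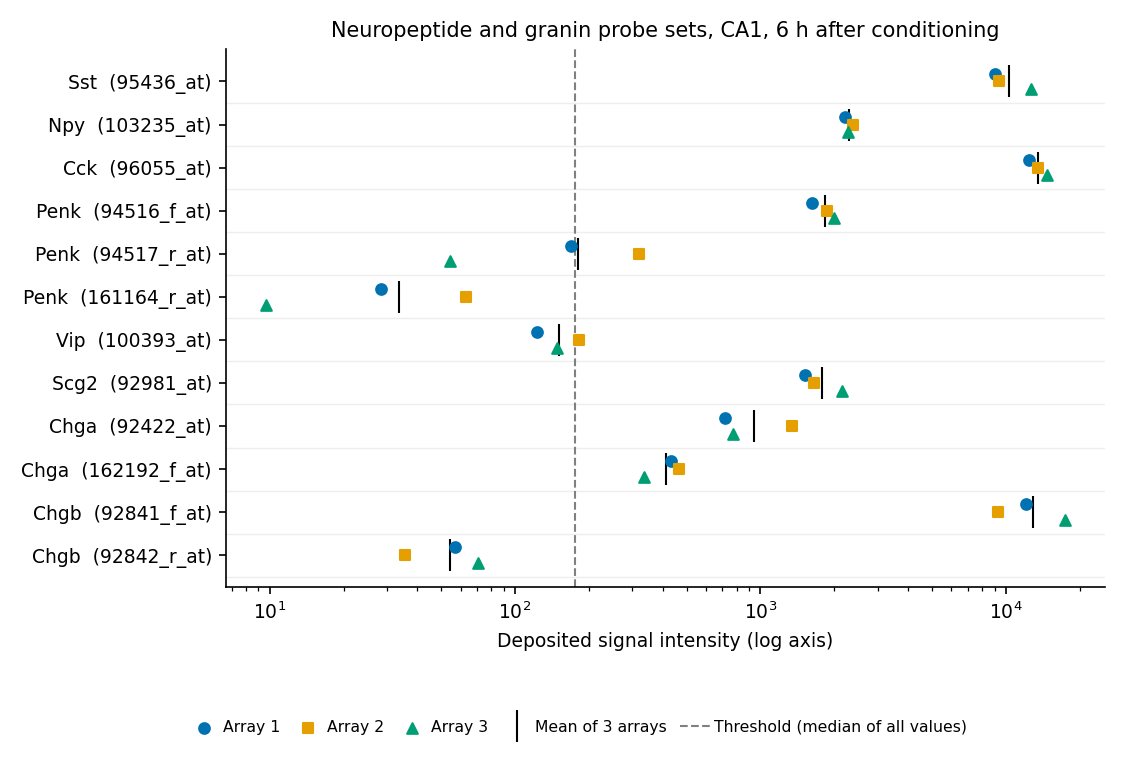
Deposited signal intensity (x axis, log scale) of the 12 probe sets of the 8 measured genes (y axis) on each of the 3 arrays, with the mean of the 3 arrays as a black bar and the threshold of 175 as a dashed line. The array 1 signals of Sst, Cck, Scg2 and Penk (94516_f_at) lie left of the others, and the 3 probe sets of Penk differ in which array is lowest.

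Somatostatin (Sst), the peptide of dendrite-targeting interneurons, gave 8995, 9355 and 12621.5 on arrays 1, 2 and 3, a mean of 10324 ± 1998. Array 3 stood above both others, which lay close together. The log2 range, the highest minus the lowest log2 signal after scaling the arrays to a common median, was 0.53, and it was 0.05 without array 3. Neuropeptide Y (Npy), which dampens excitatory transmission, gave 2208.5, 2388 and 2272, a mean of 2289 ± 91.1. Its 3 arrays nearly coincided, with a log2 range of 0.11.

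Cholecystokinin (Cck), the peptide of a class of basket cells that also carry cannabinoid receptors, gave 12380.3, 13522 and 14759, a mean of 13554 ± 1190. Its log2 range was 0.30, and 0.12 without array 3. Preproenkephalin (Penk), the precursor of the enkephalin opioids, gave 1619, 1875 and 1995, a mean of 1829.6 ± 192, on its brightest probe set, 94516_f_at. Array 1 was lowest for both genes and array 3 highest. The log2 range of Penk was 0.34, and 0.14 without array 1.

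Vasoactive intestinal peptide (Vip), the peptide of interneurons that inhibit other interneurons, was the 1 measured member under threshold. It gave 123, 181 and 148, a mean of 151 ± 29.4, and passed the threshold on array 2 alone. All 3 signals lay above 115, the highest value on any array of 15 control probe sets for bacterial transcripts. A mean under the threshold does not show that the transcript was absent.

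The 3 granins had log2 ranges from 0.54 to 0.95, and the 4 peptide precursors above threshold from 0.11 to 0.53. Whether the groups differ was not tested. Chromogranin B (Chgb), a matrix protein of dense-core vesicles, gave 12113, 9286 and 17389 on 92841_f_at, a mean of 12929 ± 4112. Array 3 was highest and array 2 lowest, a log2 range of 0.95. Without array 3 the range was 0.39. Chromogranin A (Chga), a soluble granin used as a marker of neuroendocrine cells, gave 719.9, 1343 and 772, a mean of 945 ± 346. Here array 2 stood alone above the others. The log2 range was 0.89, and 0.15 without array 2, the array with the lowest 3′ to 5′ ratio of Gapdh. The part of that ratio in the result was not tested. Secretogranin II (Scg2), the precursor of secretoneurin, gave 1523, 1654 and 2144, a mean of 1774 ± 327, with array 3 above both others. Its log2 range was 0.54, and 0.12 without array 3.

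No member above threshold had arrays more than 2-fold apart at its brightest probe set, 0 of 7, against 10.2% of all named genes above threshold. The median log2 range was 0.53 over the 7 members and 0.47 over all named genes above threshold, and the median log2 SD was 0.28 and 0.25. Each variance was set against that expected at its signal level with limma, over 6218 probe sets above threshold. After Benjamini-Hochberg adjustment 0 of the 7 members passed at 0.05, and 0.0161% of all probe sets did. At an unadjusted p under 0.05 there was 1, Chgb, against 4.57% of named genes. The variance of Chgb was 5.56 times that expected at its level (limma, adjusted p = 0.899). That of Chga was 3.55 times (limma, adjusted p = 0.971) and that of Sst 2.02 times (limma, adjusted p = 0.988). Scg2 had 1.40 times the expected variance, Cck and Penk 0.545 and 0.528 times, and Npy 0.0583 times. The variance was above that expected for 4 of 7 members, the 3 granins and Sst, and for 41% of all named genes above threshold.

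**Figure D2:**
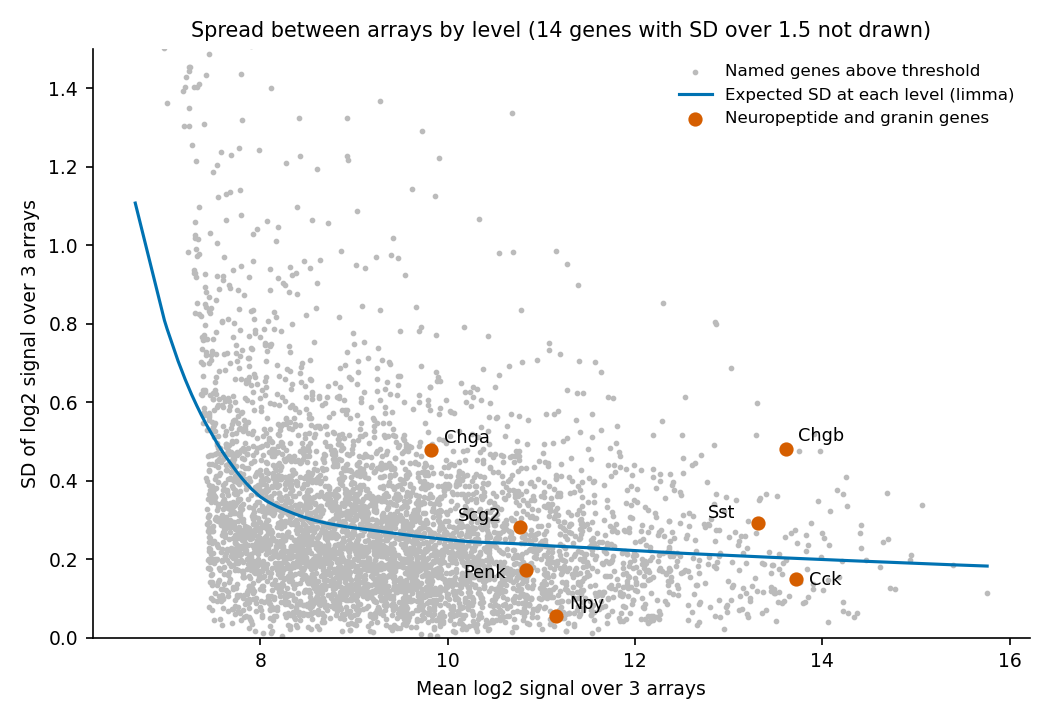
SD of log2 signal over the 3 arrays (y axis) against the mean log2 signal (x axis) for 4876 named genes above threshold, with the SD expected at each level by limma as a line and the 7 members in orange; 14 genes with an SD over 1.5 are not drawn. Chgb, Chga, Sst and Scg2 lie above the line and Npy, Penk and Cck below it.

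Array 1 was the low array for this gene set at the brightest probe sets. The shift of a gene on an array is its log2 signal less its average over the remaining 2 arrays. On array 1 all 7 members had a shift below 0, as had 49.6% of all named genes above threshold. The shifts ran from -0.52 for Chga to -0.09 for Chgb, with a median of -0.28, against 0.0039 over all named genes. Array 1 gave the lowest signal for 6 of the 7, the exception being Chgb, and for 27.6% of all named genes. Vip was also lowest on array 1. Without array 3 the median shift on array 1 was -0.12 and 6 of 7 members lay below array 2. Averaging all probe sets of a gene left array 1 the lowest for 4 of 7, with all 7 shifts still below 0. Taken singly, the second probe sets above threshold of Penk (94517_r_at) and Chga (162192_f_at) went the other way. Their shifts on array 1 were 0.35 and 0.11.

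Array 3 was the high array for most members. It gave the highest signal for 5 of 7, namely Sst, Cck, Penk, Scg2 and Chgb, and for 33.4% of all named genes. The shift on array 3 was above 0 for 6 of 7 members, with Chga as the exception, and for 56.5% of all named genes. Its median was 0.24 over the members and 0.06 over all named genes. It was 0.24 for the 4 peptide precursors and 0.48 for the 3 granins. With only probe sets of the plain _at suffix, which leave out Penk and Chgb, it was 0.24 for precursors and 0.09 for granins. The median shift on array 2 was -0.03, with 3 of 7 members above 0, against 44.5% of all named genes, and it turned to 0.02 after quantile normalization and 0.09 after cyclic loess. The order of arrays 2 and 3 depended on the scaling. After cyclic loess array 3 was highest for 4 members. When the arrays were scaled to the 9 spike control probe sets (BioB, BioC, BioDn and CreX), whose geometric mean was 6659, 4578 and 7332, it was highest for 1 member and array 2 for 6. That scaling, chosen after the data were seen, moved the median shift of all named genes to -0.18, 0.57 and -0.40 on arrays 1, 2 and 3. It multiplies every signal of an array by the same factor, so the members' place relative to other genes cannot change.

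**Figure D3:**
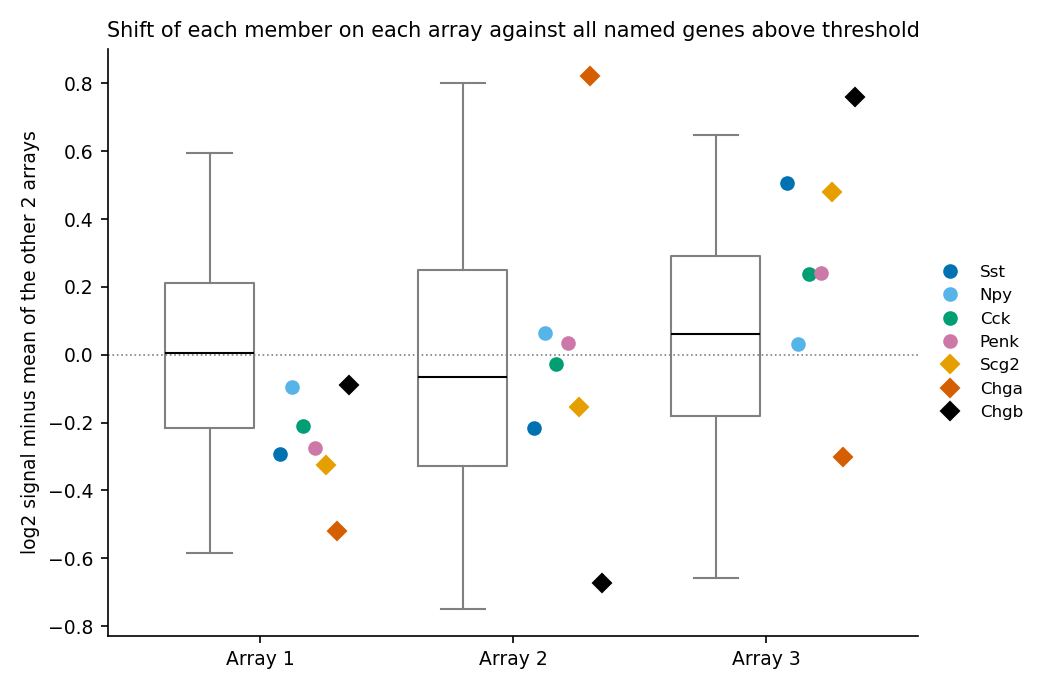
Log2 signal of each of the 7 members above threshold on each array (x axis) minus its mean on the other 2 arrays (y axis), with circles for peptide precursors and diamonds for granins. Boxes show the median and quartiles of 4876 named genes above threshold and whiskers their 5th to 95th percentiles; all 7 members lie below 0 on array 1.

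The genes with the whole palindrome, Sst, Scg2 and Chgb, were all highest on array 3. So were Cck, whose window held a core site, and Penk, for which no window was given. Chga and Vip, with a core site, and Npy, with none, were highest on array 2. Nothing about regulation is drawn from this order.

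Further probe sets of the same gene did not always repeat the order of the arrays. On this array design the suffix _f_at marks probes shared with similar sequences and _r_at a set for which the usual probe selection rules were relaxed. For Penk, the probe set 94517_r_at gave 169.8, 319 and 54.2, so that array 3 was lowest where 94516_f_at had it highest. The remaining Penk probe set, 161164_r_at, gave 28.3, 63.0 and 9.7, under threshold on each array. With a mean of 181, 94517_r_at was just above the threshold and was the 1 of 9 member probe sets above it with arrays more than 2-fold apart, against 12.1% of all probe sets above threshold. Its log2 range was 2.51 (limma, adjusted p = 0.971). For Chga, the probe set 162192_f_at gave 432.5, 465 and 337, a log2 range of 0.41. Both Chga probe sets were highest on array 2, but array 3 was lowest on this one. Except where probe sets are averaged, the Chgb values, ratios and nearest genes are from 92841_f_at. Whether similar sequences add to its signal was not tested. The other Chgb probe set, 92842_r_at, gave 56.8, 35.5 and 70.9, under threshold. All 3 signals of that probe set, and of 161164_r_at, were under 115, the highest bacterial control value, so their order is not read.

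The signals of interneuron markers are given beside those of peptides made in interneurons. Bulk RNA does not show which of them are made in the same cells. In bulk RNA, fewer cells of a type and less RNA per cell cannot be told apart. Of 9 interneuron markers with a probe set, 8 were above threshold. The summed signal of all 9 was 13434, 12111 and 14876 on arrays 1, 2 and 3. Gad2, the marker under threshold, gave 149.5, 108.5 and 95.3, highest on array 1. Gad1, which makes GABA, gave 3824.5, 3854 and 4792, in the order of Sst. The Sst signal divided by that of Gad1 was 2.35, 2.43 and 2.63, a spread of 1.12-fold, where Sst alone spread 1.40-fold. The Npy signal divided by that of Gad1 was 0.577, 0.620 and 0.474, a spread of 1.31-fold, against 1.08-fold for Npy alone. Pvalb, the calcium buffer of fast-spiking basket cells, gave 3309, 3624 and 3467, with array 1 lowest as for Npy. Slc32a1, the vesicular GABA transporter gene, gave 3905, 2587 and 4391.5, in the order of Chgb. The spread of Sst was 1.57-fold over Slc32a1 and 1.41-fold over Pvalb, and that of Npy 1.79-fold and 1.02-fold. Each ratio to an interneuron marker thus depended on the marker taken.

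Some marker lists of adjoining tissue were uneven across the arrays, and their part in the members' shifts was not tested. Of all 4876 named genes above threshold, 1547 were highest on array 1 and 1702 on array 2. CA3 and CA2 markers lay below 0 on array 1 for 4 of 4 genes above threshold, with a median shift of -0.70. Their summed signal over 6 genes with a probe set was 6281, 11453 and 7655. Without Nnat, at 1042, 4861.5 and 885, it was 5239, 6591 and 6770.5, with array 1 still lowest and array 3 highest. On the same list Pcp4 was at 5.8, 21.6 and 28.6, and Rgs14 at 4134, 4758 and 4918. Markers of meninges and fibroblasts had their highest signal on array 1 for 4 of 6 genes above threshold, with a summed signal over 8 genes of 12919.9, 8749 and 8080.4. Without Ptgds, at 8808, 4634.5 and 4726, the other 7 summed to 4112, 4114 and 3354, and Igfbp2 and Slc6a13 were highest on array 2. Choroid plexus and ependyma markers were highest on array 2, as was Chga, for 4 of 4 genes above threshold, with a summed signal over 6 genes of 3879, 7580.2 and 2360.1. Ttr, the transthyretin gene of choroid plexus, gave 1333.5, 4257 and 94.2 and was the 1 gene to pass the variance test (limma, adjusted p = 0.0492). Without Ttr the sums were 2545, 3323.5 and 2266. Thalamic markers were highest on array 2 for 3 of 5 genes above threshold, namely Cplx1, Tcf7l2 and Rora. Rora gave 223.5, 226.7 and 117.9, so arrays 1 and 2 nearly coincided. The summed signal over 6 thalamic genes was 3180, 5394 and 2901. Without Cplx1, at 1417, 3458 and 1124, the sums were 1763, 1936 and 1777.

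Among other neuropeptide precursors, 20 of 28 genes listed had a probe set. Of these 20, 9 were above threshold, 6 of them on all 3 arrays, and 8 were under it on every array. Cortistatin (Cort), a relative of somatostatin, gave 1044.5, 714 and 711.5, highest on array 1 where Sst was lowest. Angiotensinogen (Agt), made mainly by astrocytes, gave 717, 564 and 575, also highest on array 1. Galanin (Gal) gave 327, 412 and 406 and oxytocin (Oxt) 301, 443 and 357, both lowest on array 1. The signals of Trh were 311, 259 and 216, of Tac1, the substance P precursor, 247, 189.6 and 193, and of Tac2, the neurokinin B precursor, 168, 204 and 287. Of the 9 above threshold, 2 were more than 2-fold apart, Pomc at 87.4, 269 and 181 and Gnrh1 at 324, 146 and 311.5. Dynorphin (Pdyn) was under threshold on its brighter probe set, at 183, 182 and 104. In limma 0 of 9 passed, adjusted or at an unadjusted p under 0.05. The median shift of this list was 0.31 on array 1, where that of the members was -0.28, and the difference was not tested.

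The machinery that sorts and cuts the precursors was above threshold for 9 of 13 genes with a probe set, 8 of them on all 3 arrays. Carboxypeptidase E (Cpe), which trims the basic residues left by the convertases, gave 18823.5, 16323 and 24882.5. Its second probe set gave 12564, 11416 and 15160, so array 3 was highest and array 2 lowest in both, as for Chgb. The Chgb signal divided by that of Cpe was 0.643, 0.569 and 0.699, a spread of 1.23-fold where Chgb alone spread 1.87-fold. Over the 9 genes of the list above threshold, dividing narrowed the spread of Chgb for 4 and widened it for 5, with Cpe giving the narrowest and a median of 1.92-fold. Secretogranin V (Scg5), the chaperone of convertase 2, gave 1469, 1369 and 1477, and secretogranin III (Scg3), which tethers granins to the vesicle membrane, 1165.5, 1023 and 1280. Pcsk1n, an inhibitor of convertase 1, gave 7512.5, 10202 and 7184, and Ptprn, a dense-core vesicle membrane protein, 2471, 3629 and 2740. Both were highest on array 2, as was Chga. Cadps, which primes dense-core vesicles for release, gave 4841, 3732 and 4878, and the convertase gene Furin 712.5, 786 and 766. Convertase 1 (Pcsk1) itself was under threshold at 86.5, 106 and 133, as was the amidating enzyme gene Pam at 22.2, 108 and 78.9. Among the 9 genes above threshold, Pcsk6 was the 1 more than 2-fold apart at its brightest probe set, at 353, 369 and 47.9 (limma, adjusted p = 0.716). Cpd gave 523, 640 and 459.5, but 342, 405 and 180 on its second probe set, a log2 range of 1.12. In limma 0 of 9 passed after adjustment, and Pcsk6 alone had an unadjusted p under 0.05.

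Receptors of the member peptides were mostly under threshold. All 18 had a probe set, 5 were above threshold, 3 of them on every array, and 12 were under it on every array. The Y2 receptor gene Npy2r, a presynaptic receptor of neuropeptide Y, gave 1019, 1008.5 and 1393. The second Npy2r probe set gave 226, 196 and 309, again highest on array 3. Cckbr, the main brain receptor of cholecystokinin, gave 827, 785 and 657.5, and the somatostatin receptor gene Sstr4 gave 638, 691 and 430.5. Both were lowest on array 3, where their ligand genes were highest. Npy1r was near the threshold at 249, 165 and 128. Sstr2 gave 48.6, 273 and 349 on its brightest probe set (limma, adjusted p = 0.859), and was the 1 of the 5 receptors above threshold that was more than 2-fold apart. The other Sstr2 probe sets read 199, 183.5 and 260.2, and 178.5, 210.4 and 118, so array 1 was lowest on the brightest alone. The opioid receptor genes Oprd1, Oprm1 and Oprk1 and the Vip receptor genes Vipr1 and Vipr2 were under threshold on every array. In limma 0 of 5 passed after adjustment, and Sstr2 alone had an unadjusted p under 0.05.

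**Figure D4:**
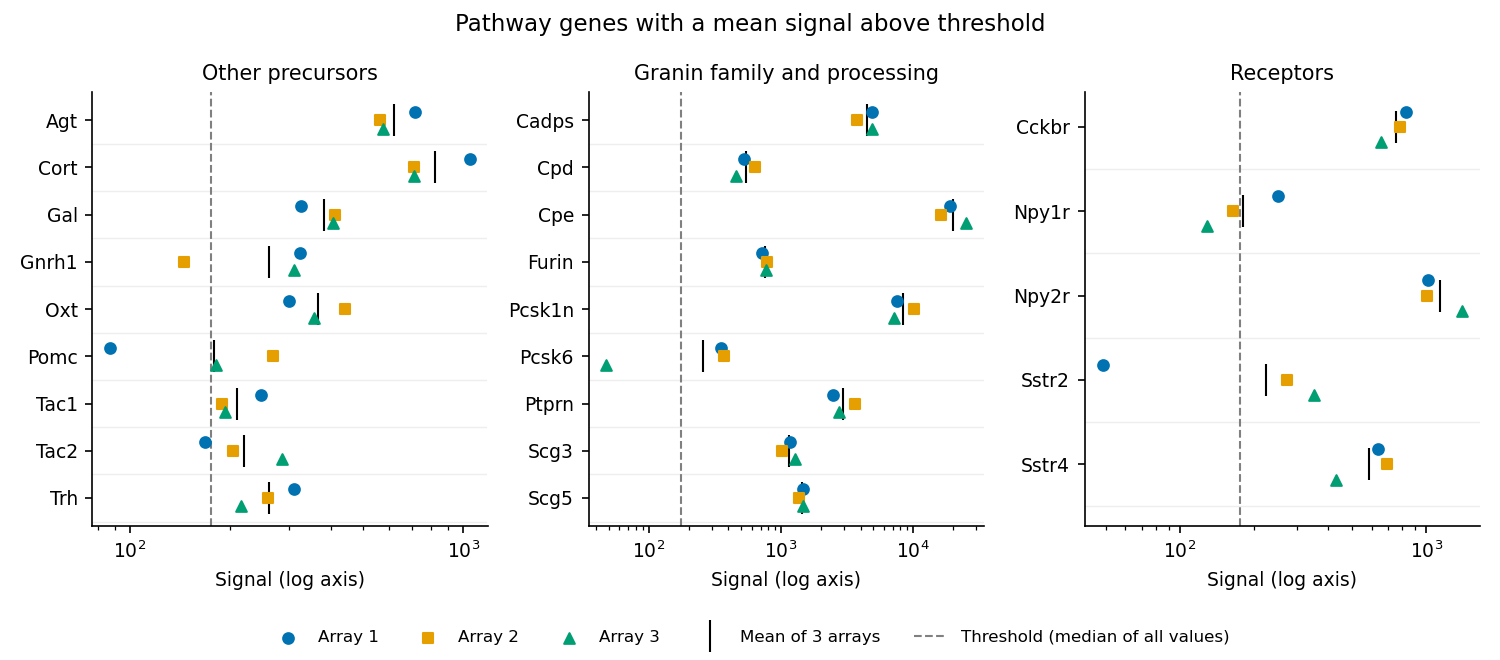
Deposited signal (x axis, log scale) on each of the 3 arrays for the pathway genes with a mean above threshold, in panels for other neuropeptide precursors, the granin family with peptide processing, and receptors, with the mean of 3 arrays as a black bar and the threshold as a dashed line. Pcsk6, Sstr2, Pomc and Gnrh1 are the 4 genes with arrays more than 2-fold apart at their brightest probe set.

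With the settings used here Chgb had the largest log2 range of the 7 members. Chga had a larger one after quantile normalization (0.93 against 0.85), cyclic loess (0.95 against 0.77) and spike scaling (1.48 against 0.38). Penk had a larger one with averaged probe sets (0.92 against 0.78). The choice of Chgb thus depended on the processing. The genes nearest to the pattern of Chgb were sought among the other 4875 named genes above threshold. Likeness was the Euclidean distance between the deviations of the 3 log2 signals from their own mean. The nearest was the AP-1 gene Jund, at 15397, 12134 and 22552 and a distance of 0.03. The others were Wrnip1, Ctrb1, the tyrosine kinase gene Fyn and Spice1, at distances from 0.04 to 0.06. In all, 24 genes lay within 0.1 of Chgb, over only 3 arrays.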

How the data were processed

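Total RNA of CA1 was measured on 3 short-oligonucleotide arrays of 12488 probe sets. The deposited values are signal intensities, 1 per probe set and array. For the program behind them, its background correction and its scaling, the method is not given in the sources used here. Each array's mean signal after trimming 2% at each end was 500.3. All 3 columns were mapped to samples by the labels, and 0 columns of other samples were present. Of 12488 probe sets 66 were controls, and of the rest 10833 had 1 gene symbol, 396 several and 1193 none in the platform annotation. Symbols were checked through Entrez identifiers against the GRCm38.p6 gene table.

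Levels are the deposited signals. For spread and shifts, arrays were scaled to a common median over probe sets above threshold (factors 0.991, 0.987 and 1.02), floored at 47.5, the 25th percentile of all values, and log2-transformed. Variances were compared with an intensity-dependent robust prior (limma 3.58.1 in R 4.3.3, winsorised at 0.05 and 0.1), with Benjamini-Hochberg adjustment over 6218 probe sets and a threshold of 0.05. With 1 group no test between groups was possible. Precision is limited by having only 3 arrays.

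The members, lists and settings were chosen with earlier results of these data known. The text names every member, pathway genes by role including all above threshold with arrays more than 2-fold apart, and the 5 genes nearest to the member with the largest range. The alternatives were no scaling, quantile normalization, cyclic loess, other floors and thresholds, plain-suffix probe sets, the mean of probe sets, a prior without winsorising, each array left out, and, chosen after seeing the data, scaling to spike controls.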

Additional observations from a re-analysis of the deposited data

How the results depend on the processing

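Of 8 measured members, 5 to 8 were above threshold under 15 alternatives, and 0 passed the limma variance test under each of them, with adjusted p from 0.533 to 1. The count above threshold was 5 with plain-suffix probe sets, which Penk and Chgb do not have. Scaling to spike controls gave 1 member more than 2-fold apart, and median member shifts of 0.61 on array 2 and -0.21 on array 3. It also put 4 processing genes and 3 receptors more than 2-fold apart. That scaling moved all genes together, so its change follows from its construction. Under 14 alternatives the median shift on array 1 ran from -0.46 to -0.12. Leaving out 1 array at a time gave -0.35 to -0.12 on array 1, -0.18 to 0.12 on array 2 and 0.18 to 0.35 on array 3. The count of other precursors above threshold was 16 at the 25th percentile, 2 at the 75th and 20 with no threshold, and that of receptors 11, 3 and 18. More than 2-fold apart were then 5, 0 and 5 precursors and 4, 0 and 4 processing genes, and 0 receptors at the 75th percentile and 2 with no threshold. These changes follow from the number of genes let in. With plain-suffix probe sets, and with the mean of all probe sets, 0 receptors were more than 2-fold apart, since the bright Sstr2 probe set was left out or averaged. Leaving out 1 array at a time gave 1 precursor more than 2-fold apart without array 1 or array 2 and 2 without array 3. Pomc was at 269 and 181 without array 1. Without array 2 Pomc was at 87.4 and 181, Gnrh1 at 324 and 311.5, and the precursor Hcrt at 260 and 101.5. Processing genes were 0 without array 3, where Pcsk6 was at 353 and 369, and 1 otherwise. Receptors were 0 in each case. Without array 1 Sstr2 was at 273 and 349, and without array 2 or array 3 another of its probe sets was the brightest. No paired analysis was possible because all arrays belong to 1 group. Signals near the threshold, as for Vip and 94517_r_at of Penk, are the least certain.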
